A study of Mus musculus with 20 samples.

Results

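The mRNAs of 10 oxygen-dependent chromatin enzymes were followed in mouse cortical neurons: 7 histone demethylases of the Jumonji C (JmjC) class, Kdm3a, Kdm4a, Kdm4b, Kdm4c, Kdm5b, Kdm6b and Kdm7a, and the 3 DNA dioxygenases Tet1, Tet2 and Tet3. They were taken by gene symbol, and all 10 were found among the 14700 genes listed in at least 1 of the 4 deposited tables and among the 13688 genes listed in every table. All 10 therefore passed the authors' filter on low values in each comparison. Cortices were taken at embryonic day 15 from mice labelled with the strain C57BL/6N-Cdr1asem1Nikr, and the neurons were grown for 7 days. Wild-type (WT) cultures and cultures lacking ciRS-7, a circular RNA from the locus listed as Cdr1as (knockout, KO), were each treated in 2 ways for 12 h. In normoxia (N) the medium held 25 mM D-glucose and 0.2 mM sodium pyruvate, and under oxygen and glucose deprivation (OGD), a model of ischaemia in culture, it had neither added and the cells were kept at 1% O2 and 5% CO2. This gave 4 groups of 5 libraries: N_WT, OGD_WT, N_KO and OGD_KO. The submitters call the 5 libraries of a group biological replicates, and how many embryos or litters went into a culture is not given in the sources used here. The medium differs between N and OGD in glucose and pyruvate as well as in oxygen, so these cannot be told apart.

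Both families need molecular oxygen, iron and 2-oxoglutarate for each catalytic cycle and release succinate and carbon dioxide. The JmjC enzymes take methyl groups off lysines of histone tails, and the TET enzymes oxidise methylcytosine in DNA, the first step of its active removal. Several JmjC genes, Kdm3a foremost, are textbook targets of the hypoxia-inducible factors (HIFs), which bind a short DNA core spelled ACGTG or GCGTG, and in neurons the TET enzymes are known for the high hydroxymethylcytosine of the adult brain. An mRNA level says nothing by itself about enzyme activity, which was not measured.

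Total RNA was sequenced with a stranded kit, and the libraries held between 7071506 and 16658617 reads in the deposited genes. Levels are given as CPM (reads of a gene relative to the size of its library), on 1 scale for all libraries. Library size was set from medians of ratios between libraries, so the levels of a library need not sum to a fixed total. Changes are given as log2 fold changes from a fit within each deposited table. Cdr1as checked the genotype labels: it stood at 86.6 ± 7.96 CPM in N_WT and 92.2 ± 28.2 in OGD_WT, against 0.844 ± 0.363 in N_KO and 0.904 ± 0.486 in OGD_KO (mean ± SD, n = 5 each). Under deprivation the marker genes of neurons and of dividing or astroglial cells moved in opposite directions. Of 10 neuron markers, 6 fell in WT and 7 in KO by limma (adjusted p under 0.05), and their summed level was 4235 to 5621 CPM in N_WT, 2774 to 5045 in OGD_WT, 4786 to 4948 in N_KO and 3052 to 3868 in OGD_KO. Of 9 measured astrocyte markers, 5 rose and 1 fell in WT and 4 rose in KO, and their sum was 1401 to 1838 CPM in N_WT, 2194 to 2822 in OGD_WT, 1383 to 1839 in N_KO and 1910 to 2619 in OGD_KO. Of 12 proliferation and progenitor markers, 8 rose and 1 fell in WT and 8 rose in KO, with sums of 679 to 883, 1123 to 1732, 652 to 953 and 1295 to 1661 CPM in the same order of groups. Of the 10 microglia markers 9, including Cx3cr1 and Csf1r, and of the 10 endothelial and mural markers 9, including Pecam1 and Cldn5, were missing from at least 1 table. Of 8 measured oligodendrocyte lineage markers, 1 rose and 2 fell in WT and 3 rose in KO. Beside all these marker counts, 21.6% of all genes were called higher and 22.8% lower in WT. In KO these shares were 21% and 19.9%. In bulk RNA, fewer cells of a type and less RNA per cell cannot be told apart, and the part of these shifts in the changes below was not tested.

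In normoxic WT cultures the 10 mRNAs differed in level per length, with Kdm4a the highest and Kdm7a the lowest. Per kilobase of annotated exon, the level in N_WT was 19.1 ± 1.66 CPM for Kdm4a, 14.3 ± 4.08 for Kdm4b, 11.9 ± 2.55 for Kdm6b and 10.4 ± 1.92 for Kdm5b (mean ± SD, n = 5). The middle of the order held Tet3 at 9.6 ± 1.32, Tet2 at 7.52 ± 1.23 and Kdm4c at 7.33 ± 1.3, and the low end Kdm3a at 5.58 ± 2.16, Tet1 at 4.41 ± 0.333 and Kdm7a at 3.93 ± 1.52. Each neighbouring pair in this order differed by less than the sum of its SDs. Under deprivation the order changed. Kdm3a moved from the eighth place to the first, at 31.2 ± 10.5 CPM per kilobase in OGD_WT and 27 ± 4.26 in OGD_KO. Tet2 followed in WT at 20.5 ± 8.5, close to Kdm4b at 20 ± 5.79, Kdm4a at 19.7 ± 4.46 and Kdm6b at 19.3 ± 5.21. Kdm7a reached 15.7 ± 4.28, and Tet1 was then the lowest at 5.64 ± 1.21. The lengths are all exons of a gene's annotated transcripts joined, so a gene with long unused exons is set too low.

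**Figure D1:**
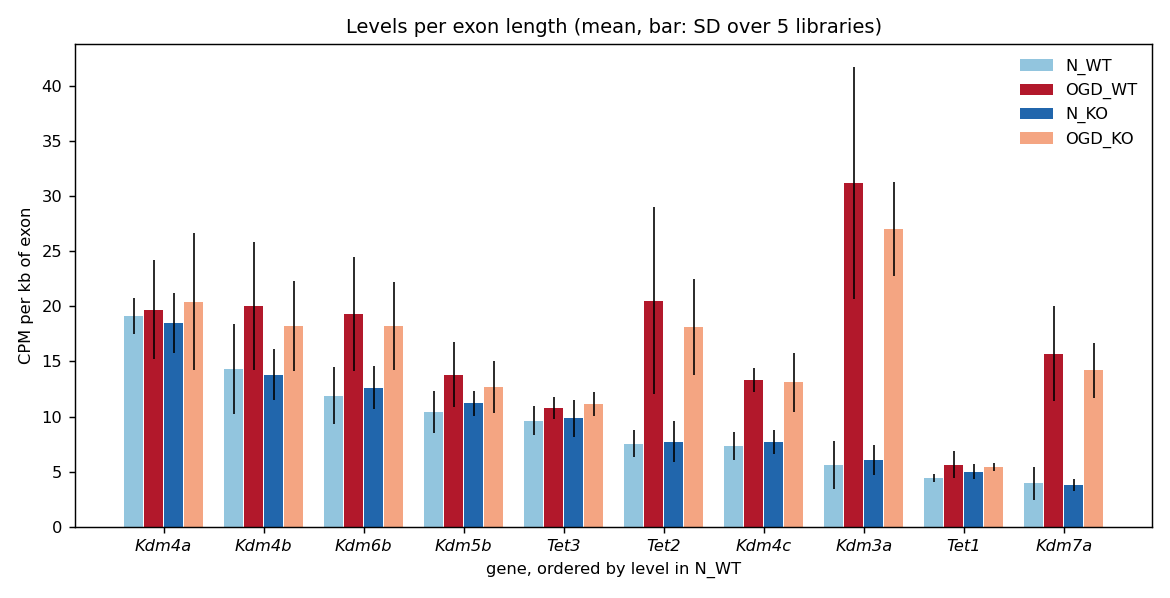
Mean level of each of the 10 mRNAs per kilobase of exon (CPM per kilobase, vertical axis) in N_WT, OGD_WT, N_KO and OGD_KO; error bars are the SD over 5 libraries. Kdm3a stood at 5.58 in N_WT and 31.2 in OGD_WT, while Kdm4a stood at 19.1 and 19.7.

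Deprivation raised the mRNAs of 5 of the 10 enzymes in WT cultures and of the same 5 in KO cultures, and lowered none. They were Kdm3a, Kdm7a, Tet2, Kdm4c and Kdm6b, in that order of size in both genotypes. The background was wide: 44.3% of the 14235 genes tested changed in WT (21.6% higher, 22.8% lower), and 40.9% of 14375 in KO (21% higher, 19.9% lower), by limma at a Benjamini-Hochberg adjusted p under 0.05. The 5 of 10 called is thus near the share of all genes called, and above the share of all genes called higher. The median log2 change of the 10 was 0.56 in WT and 0.46 in KO, beside −0.03 and 0.00 over all genes. On this scaling all 10 estimates lay above 0 in both genotypes. Unlogged values summed to more in every deprived library than in every normoxic one, so changes relative to total reads would be shifted downward. That scaling was not run, and the signs of the smallest estimates depend on such choices. Over the alternatives run, Kdm4a ranged from −0.11 to 0.13 in WT and from −0.04 to 0.29 in KO. In WT, 3 members had groups that did not overlap, against 26.9% of all genes, and in KO also 3, against 25.8%.

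**Figure D2:**
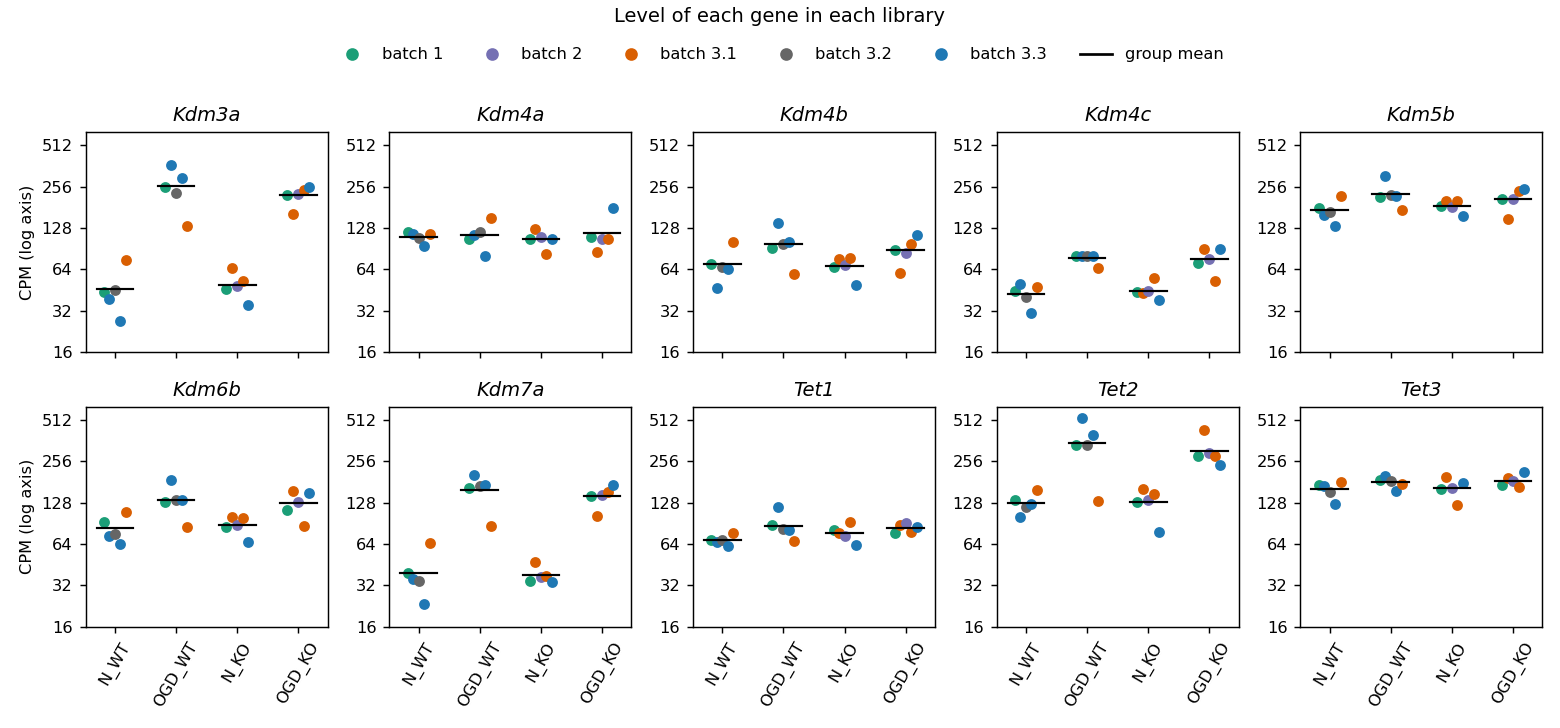
Level of each gene in each of the 20 libraries (CPM, log axis), by group; points are coloured by the batch label of the culture and lines are group means. Kdm3a and Kdm7a had no overlap between N and OGD in either genotype, and the batch 3.1 library was the highest of N_WT and the lowest of OGD_WT for both.

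Kdm3a, which removes mono- and dimethyl marks from lysine 9 of histone H3, showed the largest change. Its gene lies at chr6:71588972-71632990 on the minus strand (GENCODE M21 on GRCm38, as for the other genes here). In N_WT it stood at 43.8, 38.7, 45.4, 26.8 and 74.9 CPM in replicates 1 to 5, and in OGD_WT at 256, 366, 232, 295 and 132 CPM. Every deprived library lay above every normoxic one, with replicate 5 the highest of the normoxic and the lowest of the deprived. The log2 change was 2.46 ± 0.24 (SE; limma adjusted p = 8.68e-08), which placed Kdm3a as number 50 from the top of 14235 genes, and a two-sided exact permutation test of the 5 against 5 libraries gave p = 0.00794, the smallest it can give. In KO cultures the levels were 45.9, 66.1, 48.5, 52.3 and 35.4 CPM in N_KO and 224, 162, 228, 241 and 253 CPM in OGD_KO. These groups also stood clear of each other, with replicate 2 both the highest normoxic and the lowest deprived library. The log2 change was 2.17 ± 0.17 (limma adjusted p = 4.44e-08; exact permutation p = 0.00794).

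Kdm7a, a demethylase with a PHD finger that acts on dimethyl lysines 9 and 27 of histone H3, was the lowest of the 10 in normoxia and rose nearly as far. Its gene lies at chr6:39136623-39206789, minus strand. Its N_WT levels were 39.1, 35.7, 34.6, 23.5 and 64.9 CPM, and its OGD_WT levels 163, 203, 168, 172 and 86.6 CPM. The groups did not overlap, and replicate 5 was again the highest normoxic and the lowest deprived library. The log2 change was 2.00 ± 0.23 (limma adjusted p = 6.37e-07; exact permutation p = 0.00794). In KO, N_KO held 34.3, 47.6, 36.9, 37.7 and 34 CPM and OGD_KO 144, 103, 145, 152 and 171 CPM, again without overlap, and the log2 change was 1.90 ± 0.16 (limma adjusted p = 6.1e-08). The annotation places 4930599N23Rik on the other strand within Kdm7a, and 0.24% of the gene's 50-base words occur in other genes.

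Tet2, the TET enzyme that lacks a CXXC DNA-binding domain of its own, was the 1 member of its family that passed the test. Its gene lies at chr3:133463679-133545139, minus strand. In N_WT it stood at 133, 101, 118, 125 and 158 CPM and in OGD_WT at 334, 530, 335, 395 and 132 CPM. Replicates 1 to 4 were all higher under deprivation than any normoxic library, and replicate 5 was not: it was lower in OGD than in its own normoxic partner, so the groups overlapped. The log2 change was 1.31 ± 0.24 (limma adjusted p = 0.000202; exact permutation p = 0.0238), with a rise in 4 of 5 cultures. In KO, N_KO held 129, 161, 134, 149 and 78.1 CPM and OGD_KO 278, 431, 295, 279 and 240 CPM. These groups did not overlap, and all 5 cultures rose, by 1.25 ± 0.20 (limma adjusted p = 8.05e-05).

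The other 2 TET mRNAs did not pass. Tet1, which carries a CXXC domain, ranged from 62.1 to 76.3 CPM in N_WT (median 68) and from 66.8 to 118 in OGD_WT (median 81.6), a log2 difference of 0.32 ± 0.15 (limma adjusted p = 0.095), and its difference in KO was 0.13 ± 0.14 (limma adjusted p = 0.48). Tet3, the other CXXC member, ranged from 125 to 182 CPM in N_WT and from 156 to 201 in OGD_WT, a log2 difference of 0.16 ± 0.15 (limma adjusted p = 0.383), and of 0.20 ± 0.16 in KO (limma adjusted p = 0.328). The 95% intervals for Tet3, −0.14 to 0.46 in WT and −0.13 to 0.52 in KO, leave out changes of the size seen for Tet2.

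Of the 3 Kdm4 genes among the 10, whose enzymes remove trimethyl marks from lysines 9 and 36 of histone H3, Kdm4c (chr4:74242497-74405860, plus strand) rose in both genotypes. It stood at 44.3, 50.2, 40, 31 and 47.9 CPM in N_WT and at 80.5, 79.5, 80.7, 79.9 and 65.7 CPM in OGD_WT. The deprived libraries all lay above the normoxic ones, and 4 of them fell within 2 CPM of each other. The log2 change was 0.85 ± 0.15 (limma adjusted p = 0.000111; exact permutation p = 0.00794). In KO, N_KO held 43.5, 42.9, 44.3, 55.4 and 38.6 CPM and OGD_KO 70.9, 90.1, 75.8, 52.9 and 90.7 CPM, with an overlap made by replicate 4, and the log2 change was 0.75 ± 0.16 (limma adjusted p = 0.00129; exact permutation p = 0.0159).

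Kdm4b ranged from 46.8 to 102 CPM in N_WT (median 66.2) and from 59.5 to 139 in OGD_WT (median 97.7). Its log2 difference was 0.46 ± 0.20 in WT (limma adjusted p = 0.0691) and 0.39 ± 0.17 in KO (limma adjusted p = 0.0772), neither past the threshold. It was higher under deprivation in 4 of 5 cultures of each genotype. Kdm4a, the highest member per length in normoxia, differed by 0.01 ± 0.16 in WT (limma adjusted p = 0.975; 95% interval −0.32 to 0.34) and 0.12 ± 0.18 in KO (limma adjusted p = 0.609; 95% interval −0.25 to 0.50). Its levels were 94.7 to 119 CPM in N_WT and 79.7 to 152 CPM in OGD_WT.

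Kdm6b, which takes trimethyl marks off lysine 27 of histone H3 and is known as an inducible gene, rose by less. Its gene lies at chr11:69398508-69413675, minus strand. It stood at 92.6, 73.2, 76, 64.3 and 109 CPM in N_WT and at 130, 187, 134, 134 and 85.2 CPM in OGD_WT. Replicates 1 to 4 were higher under deprivation than every normoxic library, and replicate 5 was below its partner. The log2 change was 0.66 ± 0.18 (limma adjusted p = 0.00632; exact permutation p = 0.0238). In KO, N_KO held 85, 101, 87.5, 98.1 and 66.4 CPM and OGD_KO 114, 155, 129, 86.5 and 150 CPM, with replicate 4 the low library of the deprived group, and the log2 change was 0.53 ± 0.17 (limma adjusted p = 0.0211). The KO call was lost without OGD_KO replicate 2 (log2 change 0.44, limma adjusted p = 0.0551) or without N_KO replicate 5 (0.43, limma adjusted p = 0.0568). The antisense gene Kdm6bos overlaps Kdm6b, as A230083N12Rik does Kdm4c and Gm42567 does Tet2, and whether the counting used strand is not given in the sources used here.

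Kdm5b, which removes di- and trimethyl marks from lysine 4 of histone H3, ranged from 133 to 220 CPM in N_WT (median 168) and from 173 to 308 in OGD_WT (median 220). Its log2 difference was 0.38 ± 0.17 in WT (limma adjusted p = 0.0656) and 0.17 ± 0.16 in KO (limma adjusted p = 0.403), neither past the threshold. The WT count grew when a library of replicate 5 was left out. Without OGD_WT replicate 5, 8 of the 10 genes were called, with Kdm4b, Kdm5b and Tet1 added at log2 changes of 0.62, 0.47 and 0.40. Without N_WT replicate 5 it was 7. The 5 genes called with all libraries stayed called in both cases.

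**Figure D3:**
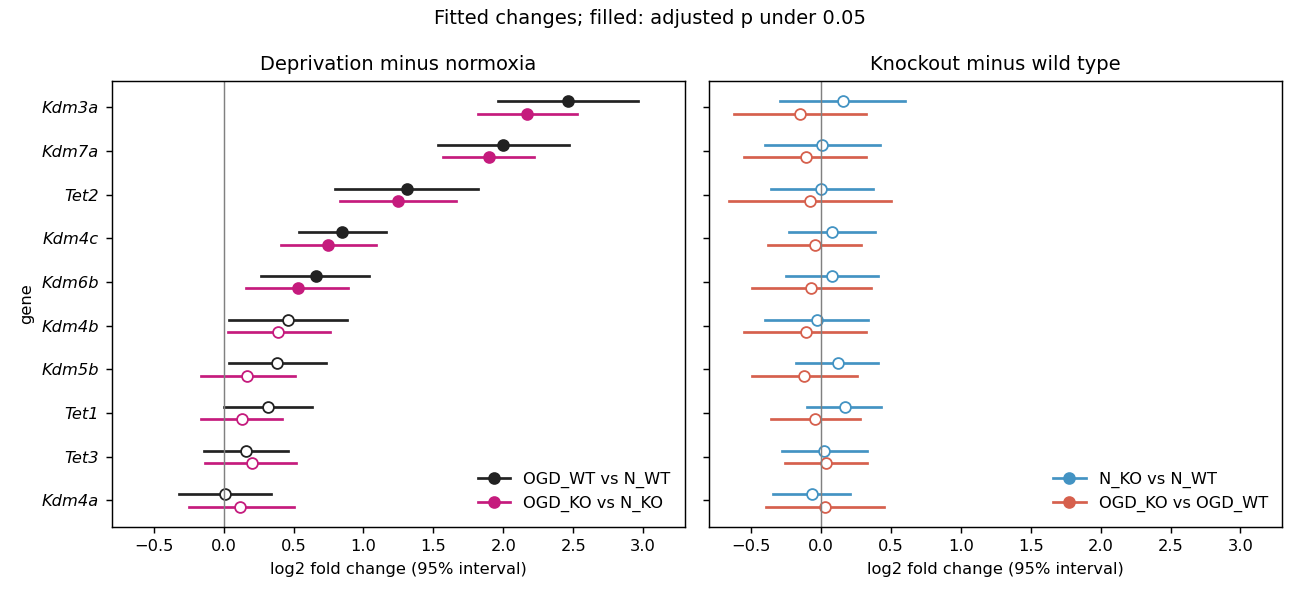
Fitted log2 fold change of each gene with its 95% interval under deprivation (left, WT and KO cultures) and between genotypes (right, in N and in OGD); filled points have a limma adjusted p under 0.05. The 5 filled genes on the left are the same in WT and KO, and no point on the right is filled.

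Cultures differed in how far the same genes moved, and for Kdm3a the order of the cultures followed the batch label. In the culture pairs labelled batch 3.1 (WT replicate 5, KO replicates 2 and 4), the log2 difference between the OGD and N library was 0.82, 1.30 and 2.20 for Kdm3a. In batch 3.3 (WT replicates 2 and 4, KO replicate 5) it was 3.24, 3.45 and 2.83, and in the 4 other cultures it lay between 2.23 and 2.54. The batch 3.1 pairs were thus the 3 smallest and the batch 3.3 pairs the 3 largest for Kdm3a. Kdm7a gave 0.41, 1.11 and 2.01 in batch 3.1, 2.33 to 2.86 in batch 3.3 and 1.97 to 2.27 in the other 4 cultures. Kdm5b gave −0.34, −0.46 and 0.25 in batch 3.1, 0.65 to 0.95 in batch 3.3 and 0.16 to 0.41 in the others, and Kdm4b −0.78, −0.33 and 0.34, 0.64 to 1.57 and 0.28 to 0.56 in the same order. For these 3 genes the batch 3.3 pairs were the highest, but KO replicate 4 of batch 3.1 lay within the range of the other 4 cultures.

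For Tet2 the batch 3.3 pairs were also the highest, but the batch 3.1 pairs were spread. Tet2 gave −0.25 in WT replicate 5 but 1.42 and 0.91 in the KO pairs of batch 3.1, beside 1.62 to 2.39 in batch 3.3 and 1.11 to 1.5 in the other 4 cultures. Kdm4c gave 0.46, 1.07 and −0.07 in batch 3.1, 0.66 to 1.36 in batch 3.3 and 0.70 to 1.01 in the others, so the ranges of all 3 sets overlapped. Kdm4a, which did not pass the test, ranged from −0.56 to 0.40 in batch 3.1 and from −0.25 to 0.74 in batch 3.3. A list of hypoxia-induced genes moved with the label as Kdm3a did: the median log2 difference of its 21 genes found in all tables was 0.12, 0.49 and 1.05 in batch 3.1, 2.37 to 2.89 in batch 3.3 and 1.65 to 1.93 in the other 4 cultures. The median level of these 21 genes in the normoxic library was 5.08 to 5.15 (log2 CPM) in batch 3.1 and 3.77 to 4.47 in all other cultures. What the batch label stands for is not given in the sources used here, and its part in the changes was not tested. The 5 called genes stayed called with the label as a term in both genotypes. The N and OGD libraries paired by number carry the same label, so this term cannot shift the estimated changes. It also does not model a response whose size differs by label. With batch 3 cultures only, 3 genes stayed called in KO (Kdm3a, Kdm7a and Tet2), from 3 cultures.

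**Figure D4:**
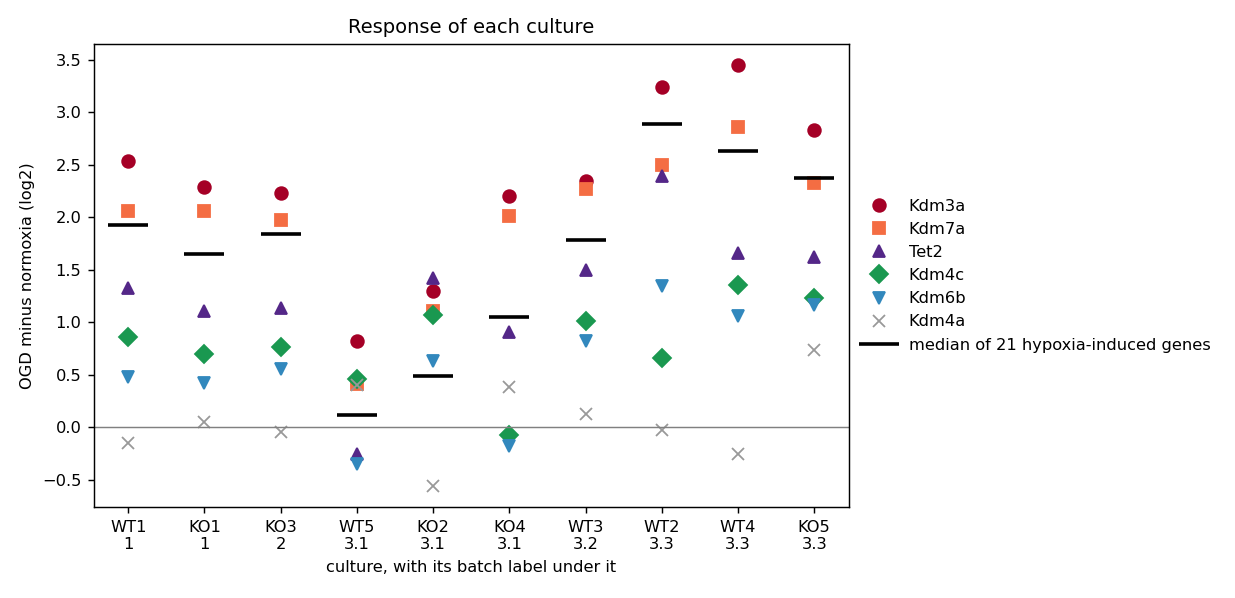
OGD minus N difference (log2) of 6 genes in each culture pair, with the pairs ordered by batch label, given under each name; black bars are the median of 21 hypoxia-induced genes. In batch 3.1 Kdm3a differed by 0.82 to 2.20 and in batch 3.3 by 2.83 to 3.45, with the bar at 0.12 to 1.05 and 2.37 to 2.89.

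Loss of ciRS-7 went with no called difference in these mRNAs, in either condition. In normoxia, 0 of the 10 passed (limma), beside 0.0353% of 14152 genes. At an unadjusted p under 0.05 it was also 0, beside 1.81% of all genes, so 0 of 10 is near the share of all genes. The estimates ran from −0.06 for Kdm4a to 0.17 for Tet1. The 95% intervals were −0.29 to 0.60 for Kdm3a, −0.40 to 0.42 for Kdm7a and −0.36 to 0.37 for Tet2. Under deprivation again 0 of 10 passed (limma), beside 0.0282% of 14185 genes. At an unadjusted p under 0.05 it was again 0, beside 1.78% of all genes. The estimates ran from −0.15 for Kdm3a to 0.04 for Tet3. The intervals there were wider, −0.62 to 0.32 for Kdm3a and −0.66 to 0.50 for Tet2.

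The response to deprivation did not differ detectably between genotypes for any of the 10. In the fit over all 20 libraries, 0% of 13688 genes passed for the difference of responses. Of the 10, 0 had an unadjusted p under 0.05 in limma, beside 0.723% of all genes, so this is near the share of all genes. For Kdm3a the KO response minus the WT response was −0.31 (95% interval −1.01 to 0.39), for Kdm7a −0.13 (−0.77 to 0.52) and for Tet2 −0.09 (−0.88 to 0.71). The intervals are wide enough to hold differences of 0.5 or more on the log2 scale for each of these 3 genes. Genotype and batch label are partly confounded. Label 3.1 held WT replicate 5 and KO replicates 2 and 4, and label 3.3 WT replicates 2 and 4 and KO replicate 5. Label 3.2 was in WT only and label 2 in KO only. The fits given here held no batch term. With the label as a term, 0 of the 10 were called between genotypes or for the difference of responses.

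The sequence before the start sites is printed for the 4 genes that rose most, Kdm3a, Kdm7a, Tet2 and Kdm4c, because HIFs are known to bind near the starts of hypoxia-induced genes. Windows from 250 bases before to 50 bases after the start were taken from RefSeq (GRCm38.p6), where 8 of the 10 genes matched. Both strands were searched for ACGTG and GCGTG, the 2 spellings of the core, and overlapping matches were counted as 1 place. Capitals mark a match, which reads CACGT or CACGC where it lies on the other strand. The Kdm3a window at chr6:71632868-71633167 and the Kdm7a window at chr6:39206724-39207023 are on the minus strand, as is the Tet2 window at chr3:133544341-133544640. The Kdm4c window at chr4:74251629-74251928 is on the plus strand, within the annotated gene and downstream of its outermost start.
Kdm3a: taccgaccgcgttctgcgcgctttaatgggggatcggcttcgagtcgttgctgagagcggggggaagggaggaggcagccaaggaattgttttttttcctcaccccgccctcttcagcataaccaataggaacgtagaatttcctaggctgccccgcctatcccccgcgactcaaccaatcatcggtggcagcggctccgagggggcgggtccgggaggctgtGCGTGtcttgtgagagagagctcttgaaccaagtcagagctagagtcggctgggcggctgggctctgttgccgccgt
Kdm7a: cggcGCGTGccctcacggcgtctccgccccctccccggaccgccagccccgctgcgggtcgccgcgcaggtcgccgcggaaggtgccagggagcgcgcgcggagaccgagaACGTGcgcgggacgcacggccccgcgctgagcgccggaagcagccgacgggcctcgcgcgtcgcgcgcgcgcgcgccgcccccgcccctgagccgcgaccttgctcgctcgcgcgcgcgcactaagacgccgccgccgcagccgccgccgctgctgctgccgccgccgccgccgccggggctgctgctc
Tet2: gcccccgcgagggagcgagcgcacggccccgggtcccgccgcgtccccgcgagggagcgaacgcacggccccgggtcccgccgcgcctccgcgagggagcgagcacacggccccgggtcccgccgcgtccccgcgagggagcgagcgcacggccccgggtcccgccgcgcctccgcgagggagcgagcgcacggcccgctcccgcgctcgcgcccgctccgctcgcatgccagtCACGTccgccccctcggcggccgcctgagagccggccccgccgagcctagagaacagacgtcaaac
Kdm4c: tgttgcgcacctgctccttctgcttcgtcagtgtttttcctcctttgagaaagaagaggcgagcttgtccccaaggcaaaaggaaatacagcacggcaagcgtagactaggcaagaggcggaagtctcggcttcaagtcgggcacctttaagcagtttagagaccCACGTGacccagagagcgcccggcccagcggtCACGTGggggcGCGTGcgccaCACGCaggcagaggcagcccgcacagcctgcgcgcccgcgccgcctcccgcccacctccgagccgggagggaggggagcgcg

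Kdm3a held GCGTG at −27 from the start site, with no match in its windows at the other 2 start sites. Kdm7a held ACGTG at −139 and GCGTG at −246, and Tet2 held ACGTG at −16. Kdm4c held 4 places, ACGTG at −85 and −53, each as the palindrome CACGTG, and GCGTG at −42 and −32, while its window at the outermost start held none. Kdm5b, which did not pass the test, held ACGTG at −229 and GCGTG at −19. No match was found in the windows of Kdm4a, Tet1 and Tet3, which says only that these letters are not within these windows. The Tet1 and Tet3 windows, like that of Tet2, lie within the annotated genes and downstream of their outermost starts, which were not searched. Such matches are common: 43.8% of 32851 windows held at least 1 of the 2 spellings, and 71.4% of the 11378 windows with at least 15 CG pairs did, as the printed windows have. ACGTG at 2 or more places, as in Kdm4c, was found in 2.69% of windows. That share is over all windows, and the share among those with at least 15 CG pairs, of which the Kdm4c window is 1, was not computed. ACGTG at any place was found in 19.6% of all windows and in 28.4% of those with at least 15 CG pairs.

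Other JmjC and LSD-type genes moved in both directions. Of 27 other JmjC and LSD-type demethylases and JmjC proteins, 5 rose and 4 fell in WT (list median 0.27), and 6 rose and 3 fell in KO (0.20), beside the 44.3% and 40.9% of all genes called. Jmjd6, a JmjC lysyl hydroxylase, rose most, by 1.58 ± 0.21 in WT and 1.40 ± 0.17 in KO (limma adjusted p = 4.75e-06 and 4.19e-06). Jmjd1c, a close relative of Kdm3a, rose by 1.05 ± 0.30 and 0.80 ± 0.15, and Kdm5a, a paralog of Kdm5b, by 0.66 ± 0.14 and 0.56 ± 0.14. Hspbap1 fell by 1.09 in WT and by 0.68 in KO, Jmjd4 fell by 0.78 in both, and Riox2 fell by 0.53 in WT, with −0.37 in KO not past the threshold (limma adjusted p = 0.0695). Kdm4d, unlike Kdm4c, fell by 0.59 in WT and by 0.65 in KO (limma adjusted p = 0.0312 and 0.0294). Its level was low, with a mean log2 CPM of 0.62 and 0.48. It was not listed in the comparison of genotypes under deprivation, so it passed the filter through its normoxic libraries, which favours a fall. Each called gene of the 10 moved up.

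Partners of the TET enzymes moved in both directions too. Of 24 measured genes of DNA methylation, its removal and TET recruitment, 7 rose and 4 fell in each genotype (medians 0.11 and 0.21). The share called is thus near that of all genes, 44.3% in WT and 40.9% in KO. Gadd45b, among those that rose, was not listed in the comparison of genotypes in normoxia. It passed the filter only where deprived libraries were included, which favours a rise. Cxxc4, which encodes the CXXC protein (IDAX) that partners Tet2 and promotes its loss, fell by 1.42 in WT and by 1.54 in KO (limma adjusted p = 6.72e-07 and 3.49e-05), and its relative Cxxc5 rose by 0.78 and 0.50. Gadd45g, a stress-induced gene tied to active demethylation, rose by 2.09 and 2.29, and Gadd45a by 0.64 and 1.02. Smug1, a DNA glycosylase, fell by 0.77 and by 0.53, and Oga, which removes O-GlcNAc, fell by 0.46 and by 0.47, in WT and KO.

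Among the enzymes that write the marks, most of those called were higher. Of 30 histone lysine methyltransferases and their core partners, 11 rose and 1 fell in WT (median 0.28), and 11 rose and 0 fell in KO (0.30; limma), beside 21.6% and 21% of all genes called higher. Ezh2 and Eed, of the Polycomb complex that writes the lysine 27 mark Kdm6b removes, rose by 0.80 and 0.71 in WT and by 0.85 and 0.59 in KO. Suv39h2, which writes trimethyl lysine 9, rose by 0.69 and 0.55. Setd1b fell by 0.62 in WT, with −0.36 in KO not past the threshold (limma adjusted p = 0.0618). Ezh2 is also a gene of dividing cells, and 8 of the 12 proliferation and progenitor markers rose in each genotype, as given above.

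Genes that make or use the cosubstrate and its products also moved in both directions. Of 24 enzymes of 2-oxoglutarate, succinate and fumarate metabolism, 3 rose and 7 fell in WT (median −0.17), and 2 rose and 6 fell in KO (−0.24), beside 22.8% and 19.9% of all genes called lower. Idh2, the mitochondrial NADP-dependent isocitrate dehydrogenase that yields 2-oxoglutarate, rose by 1.22 and 1.31, and Suclg2, a succinyl-CoA ligase subunit, by 0.85 and 1.04. Fumarate hydratase (Fh1) fell by 0.70 and by 0.75, and Idh3a fell by 0.53 and by 0.58. Glud1 rose by 0.42 in WT, with 0.27 in KO not past the threshold (limma adjusted p = 0.16).

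The hypoxia-induced list moved further than the enzymes: 21 of 24 genes rose and 1, Ndrg1, fell in each genotype, with medians of 1.76 and 1.58. Over all genes, 21.6% were called higher in WT and 21% in KO. Only 21 of the list's genes were measured in the comparison of genotypes in normoxia. The rest passed the authors' filter only where deprived libraries were included, which favours a rise and can lift the count and the medians. Slc2a1, the glucose transporter GLUT1, rose by 3.95 in WT and 3.50 in KO, Hk2 by 3.72 and 3.34 and Vegfa by 3.29 and 2.98. Kdm3a, at 2.46 and 2.17, and Kdm7a, at 2.00 and 1.90, thus lay above the list's median in both genotypes, and the other 8 genes below it. No gene of these 5 lists was called between genotypes, in either condition, by limma. Kdm5d and Uty, sex chromosome genes among the other JmjC genes, had large but imprecise estimates of KO minus WT. Kdm5d gave −1.05 ± 0.58 in N and −0.96 ± 0.55 in OGD, and Uty −0.66 ± 0.44 and −0.69 ± 0.50. A difference in sex make-up between cultures was not tested.

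**Figure D5:**
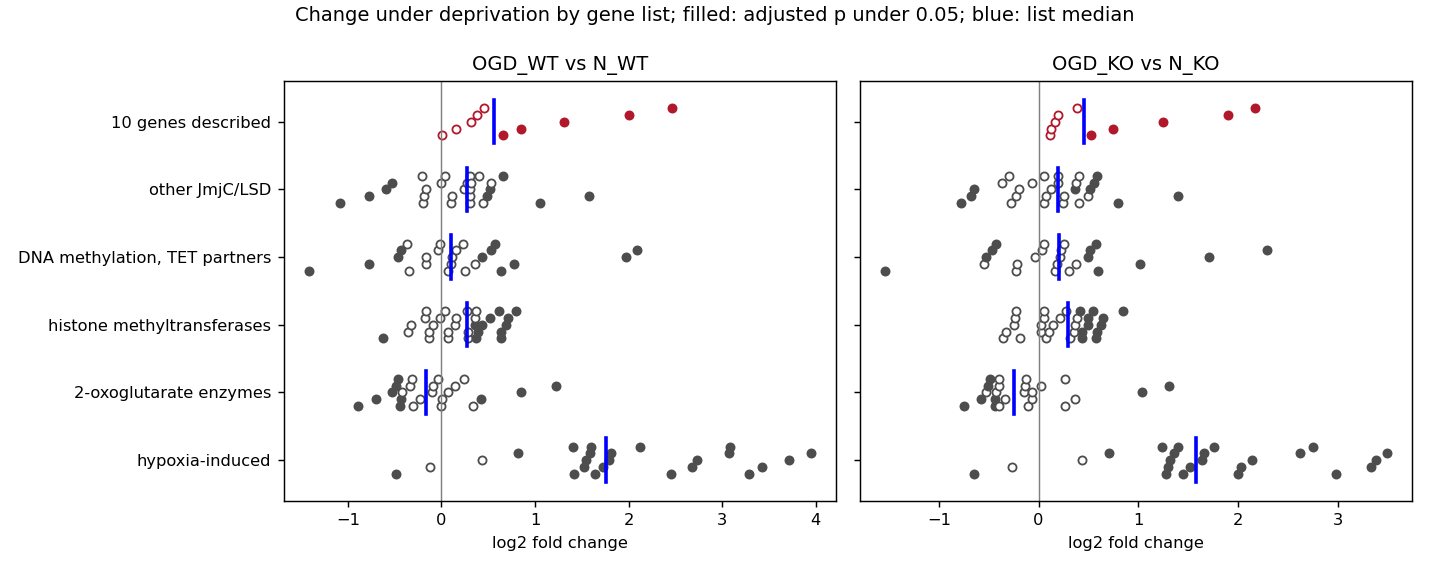
Log2 fold change under deprivation of each gene, by list, in WT (left) and KO (right); filled points have a limma adjusted p under 0.05 and blue lines are list medians. The median of the 10 enzymes was 0.56 in WT and 0.46 in KO, between 0.27 and 0.20 for the other JmjC and LSD-type genes and 1.76 and 1.58 for hypoxia-induced genes.

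Genes whose pattern over the 20 libraries was closest to 3 of the enzymes were found by Euclidean distance of centred log2 profiles, among 12619 genes. Closest to Kdm3a were Pfkl at 1.08, Plod2 at 1.43 and P4ha2 at 1.44, against a median distance of 5.64. They encode a phosphofructokinase subunit, a procollagen lysyl hydroxylase and a prolyl 4-hydroxylase subunit. Among the closest to Kdm6b were Klhl7 at 0.51 and Mn1 at 0.56 (median 2.29), and closest to Tet1 were Arrdc3 at 0.44, Dzip1l at 0.47 and Psmd14 at 0.54 (median 1.75). Tet1 and these 3 genes did not pass the test in either genotype.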

How the data were processed

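RNA from 20 libraries was measured. The authors deposited log2 CPM values (read counts scaled per library, on a log2 scale) in 4 tables, 1 per comparison. Unlogged, the values of a library sum to between 886324 and 1177551. In the deprivation comparisons these sums split by treatment. They were 1081785 to 1148652 in OGD_WT and 886324 to 923861 in N_WT. In KO they were 1058852 to 1177551 in OGD_KO and 895220 to 920637 in N_KO. The genome build is mm10 per the submitters' processing notes, and the aligner, counter, annotation, filter and scaling are not given in the sources used here. As inferred from the values, the lowest and highest value of each gene and group of 5 had been clipped to the 10th and 90th percentile (0.6 of the extreme plus 0.4 of its neighbour). This was undone: at least 99.91% of values then came to whole reads (within 0.05 reads, up to 500 reads), against 45.5% to 92.78% as deposited, and reads were equal between the tables that share a library for 100% of genes of up to 500 reads. Clipping makes the spread within groups too small. Depth was 7071506 to 16658617 reads per library in the listed genes.

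Each comparison was fitted in its own table with limma 3.58.1 in R 4.3.3 (eBayes with trend, no block or batch term, 5 against 5 libraries), with Benjamini-Hochberg adjustment over all genes and a threshold of 0.05, two-sided. The difference of responses was fitted over 20 libraries on recovered reads (size factors as medians of ratios, prior count 2) with culture as a block (correlation −0.190). N and OGD libraries of a number share genotype label and batch, and they are paired here on that basis. That both came from the same culture is inferred from these labels. The correlations of their deviations from group means were −0.71 to 0.03 in WT and −0.80 to −0.06 in KO. In neither genotype did an OGD library correlate best with the N library of its own number. Numbers do not pair WT with KO. Exact permutation tests stand beside the fits. The fit within a comparison was also run on simulated data with independent libraries, few changed genes and no batch effect. These settings differ from the data here, and the outcome is not reported.

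Exon lengths and overlaps come from GENCODE M21, matched by symbol. The members and lists were chosen with earlier results of these data known. Named were all members and, of each list, the 3 that rose and the 3 that fell furthest in WT among called genes averaging 1 or more on the log2 CPM scale, and the 3 genes nearest to Kdm3a, Kdm6b and Tet1 in pattern. Kdm4d and Gadd45b, which average below 1 on that scale, are named as well. Some genes that this rule names are not reported here. Alternatives covered the clipping, the block, scaling, filter, weights, voom on the recovered reads, prior count, batch and left-out libraries. Some were added after seeing the data: leaving out both libraries of a culture or all batch 3.1 cultures, a batch term with 5 levels, and culture differences with the batch label as a term.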

Additional observations from a re-analysis of the deposited data

Results flagged for a closer look

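In the 40 gene and group combinations, 3 had 1 library far from the other 4, by a gap of more than 0.71 of the group's range (Dixon), where chance gives about 1 in 20, or 2 of 40. On the log2 CPM scale, Kdm3a stood at 7.34 in OGD_KO replicate 2. Kdm7a stood at 6.44 and Kdm4c at 6.04 in OGD_WT replicate 5. All 3 were the lowest of their group, and both libraries carry the batch 3.1 label.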

How the results depend on the processing

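The calls for Kdm3a, Kdm7a and Tet2 under deprivation held in both genotypes under all 28 alternatives run for each, and no gene of the 10 reversed a call. Of the 10, 8 were called in WT with the clipping left in, 10 with library weights, 8 without the batch 3.1 cultures, and 4 to 8 when single libraries or cultures were left out. In KO, 9 were called with library weights and 3 with batch 3 cultures only. Without OGD_KO replicate 2, Kdm4b was called in place of Kdm6b. Kdm6b was lost in WT without both libraries of replicate 2 (log2 change 0.49, limma adjusted p = 0.0548). In KO, where its change was 0.53, it was lost without both libraries of replicates 1, 3 or 5 (0.55, 0.52 and 0.37, limma adjusted p = 0.0643, 0.0853 and 0.0694) or with batch 3 only (0.55, limma adjusted p = 0.257). In these KO fits, on fewer libraries, the estimate stayed near 0.53 except without replicate 5. It was also smaller in KO without OGD_KO replicate 2 (0.44) or N_KO replicate 5 (0.43). In WT the lost call came with a fall from 0.66 to 0.49. Kdm4b was called in KO without the batch 3.1 cultures or with the clipping left in. Genes called under deprivation numbered 12309 in WT and 10573 in KO with library weights, and 2341 in KO with batch 3 only. The weights did not converge, and the cause was not tested.

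Between genotypes in N, 5 genes were called, and 9 with the clipping left in, 3 with a replicate block, 3 at a mean log2 CPM of at least 1, 926 with library weights, 3 and 2 on the joint scale with prior counts of 2 and 0.5, 2 with batch 3 only, 11 with a batch term of 5 levels and 3 to 5 with a library left out. In OGD, 4 were called, and 12 with the clipping left in, 2 with a replicate block, 4757 with library weights, 2 on the joint scale with either prior count, 2 with batch as a term, 17 with 5 levels and 1 to 7 with a library left out. Of the 10 enzymes, 2 were called there with library weights, Kdm4b at −0.20 and Kdm7a at −0.21, and 0 otherwise (limma). The difference of responses gave 595 genes with library weights and 13 from culture differences with the batch label, and 0 of the 10. Pairing N and OGD by a replicate block gave 5681 genes in WT and 4829 in KO and changed no call of the 10. Library number limits the precision: the SE of the 10 changes under deprivation was 0.14 to 0.24.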
